A study of Rattus norvegicus with 8 samples.

Results

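DDIT3 and SQSTM1 were followed over every array of a study of dopamine agonists in rat pituitary tumour cells. They are 2 of the 28295 probe sets measured. Both were chosen by their level, as the study listed them among the genes higher in MMQ cells with cabergoline (CAB) than without it. The arrays covered 2 lines, GH3, which secretes prolactin and growth hormone, and MMQ, which secretes prolactin. Each line was measured as untreated control, after bromocriptine (BRC), after CAB and after both drugs (CAB+BRC), which gave 8 conditions with 1 array each and no replicate. The single drugs were given at 50 μM by the labels, and the study states 48 h for the GH3 BRC and the MMQ CAB arrays. The sources used here do not state the time of the other treated arrays or the dose of each drug in the combination. The study names DMSO as the control of its BRC immunoblots and describes drugs dissolved in medium for its viability assay. Whether the untreated cells of the arrays received a vehicle is not stated. The lines were kept in different culture media, so line and medium cannot be told apart. The probe sets of the file did not carry the names that go with their values. The 1 row annotated as Ddit3 had an intensity of 271 to 385 and a ratio of CAB to control in MMQ cells of 1.06, and the 4 rows annotated as Sqstm1 had ratios of 0.511 to 1.05. The row annotated as Prl had 9.71 to 16.2, so prolactin and other markers of these cells could not be read.

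DDIT3, also called CHOP, is a transcription factor of the C/EBP family that is kept low in unstressed cells. It is induced through ATF4 when the endoplasmic reticulum is under stress or amino acids are short, and prolonged induction is known to favour apoptosis. SQSTM1, also called p62, is a cargo receptor that binds ubiquitinated proteins and the LC3 family on the forming autophagosome. It is itself broken down by autophagy, and its transcription is known to respond to the antioxidant factor NRF2 and to the lysosomal regulator TFEB. The arrays measure the RNA of both genes, and neither the protein nor the flux through autophagy.

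Each gene was identified by its ratio of MMQ CAB to MMQ control, which had to equal the printed fold within a relative 1e-06. The DDIT3 row lay 2.77e-07 from it and the SQSTM1 row 9.4e-09, and for each gene exactly 1 probe set was inside the limit. The nearest rows outside lay at a relative difference of 0.00296 for DDIT3 and 0.00172 for SQSTM1. Neither row carried the name of its gene in the annotation. The difference between the MMQ CAB and MMQ control arrays is therefore given as a description without a test. Values that contain that difference, such as the effect of CAB over all MMQ arrays and the departure of CAB+BRC in MMQ cells, are given in the same way.

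The start regions of both genes are shown because they are where factors of the stress, antioxidant and lysosomal responses could act on RNA levels, which is the quantity the arrays measured. Both genes matched the RefSeq promoter table of the GRCr8 build, which holds 250 bases before and 50 after each start, and both windows are printed in the direction of the gene. Capitals mark CCACG and CCAAT on either strand, the parts of the endoplasmic reticulum stress element, in which both lie close together on 1 strand. The Ddit3 window is chr7:65001445-65001744 on the plus strand and the Sqstm1 window is chr10:35037701-35038000 on the minus strand.
Ddit3: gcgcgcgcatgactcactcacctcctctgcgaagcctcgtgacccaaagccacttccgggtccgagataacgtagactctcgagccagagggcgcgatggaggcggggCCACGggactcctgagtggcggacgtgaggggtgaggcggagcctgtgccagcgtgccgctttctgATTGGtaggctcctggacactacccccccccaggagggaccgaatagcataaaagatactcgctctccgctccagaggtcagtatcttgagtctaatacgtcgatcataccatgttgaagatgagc
Sqstm1: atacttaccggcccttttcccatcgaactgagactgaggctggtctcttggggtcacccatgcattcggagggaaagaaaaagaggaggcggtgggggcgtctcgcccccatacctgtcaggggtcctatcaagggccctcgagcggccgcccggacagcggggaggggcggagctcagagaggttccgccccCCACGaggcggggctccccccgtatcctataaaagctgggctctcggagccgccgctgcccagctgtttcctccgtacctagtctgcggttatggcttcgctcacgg
The Ddit3 window held CCACG on the gene's strand at -142 to -138 from the start and CCAAT on the opposite strand at -76 to -72. These exact matches lie on different strands. Farther along the opposite strand, this CCAAT is followed by GCACG, which differs from CCACG in 1 base. Inexact forms were not searched for, so the window is not shown to lack the element. The Sqstm1 window held CCACG at -57 to -53 and no CCAAT. On either strand CCACG was in 31.6% of all 33469 windows, and CCAAT in 37.5%, so these matches are common. Neither window held TGATGNAA, the element bound by C/EBP and ATF factors (3.98% of all windows), TGACNNNGC, the core of the antioxidant response element (12.1%), or CACGTG, the core of the lysosomal CLEAR element (6.42%). Both strands were searched for every motif, none of the marked matches overlapped, and a match is not a measured binding site. Sequence farther than 250 bases before the start was not searched, so a site there would not be seen. GC content was 60.0% in the Ddit3 window and 64.3% in the Sqstm1 window, against a median of 51.7% over all windows.

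DDIT3 was high in untreated GH3 cells and low in untreated MMQ cells, and with CAB the lines came close to each other. In GH3 cells its intensity was 1063 in the control, 543 with CAB, 634 with BRC and 705 with the combination. The GH3 control was the highest of all 8 arrays, and the treated GH3 arrays lay together below it. In MMQ cells it was 101 in the control, 714 with CAB, 243 with BRC and 910 with the combination. The MMQ control was the lowest of all 8 arrays, and both MMQ arrays with CAB lay above all treated GH3 arrays. The highest MMQ level was 9.03 times the lowest, while the GH3 levels spanned 1.96 times. In the order of levels from high to low, GH3 control, MMQ CAB+BRC, MMQ CAB, GH3 CAB+BRC, GH3 BRC and GH3 CAB followed each other by log2 steps of 0.02 to 0.35. The last steps, down to MMQ BRC (1.16) and from there to the MMQ control (1.26), were the largest. With 1 array per condition no spread between replicates sets neighbours apart, and the order is a description for both genes.

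SQSTM1 was highest in the MMQ CAB array at 2433, and the other arrays ran from 809 to 1498. In GH3 cells its intensity was 994 in the control, 809 with CAB, 1314 with BRC and 1091 with the combination. Both GH3 arrays with BRC lay above both without it, and the span was 1.62 times. In MMQ cells it was 857 in the control, 2433 with CAB, 1053 with BRC and 1498 with the combination. The MMQ CAB array was the highest of all 8, followed by MMQ CAB+BRC, and the lowest array was GH3 CAB. The largest log2 step between neighbours in the order, 0.70, was the one between MMQ CAB and MMQ CAB+BRC, as large as the difference between the GH3 BRC and GH3 CAB arrays.

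**Figure D1:**
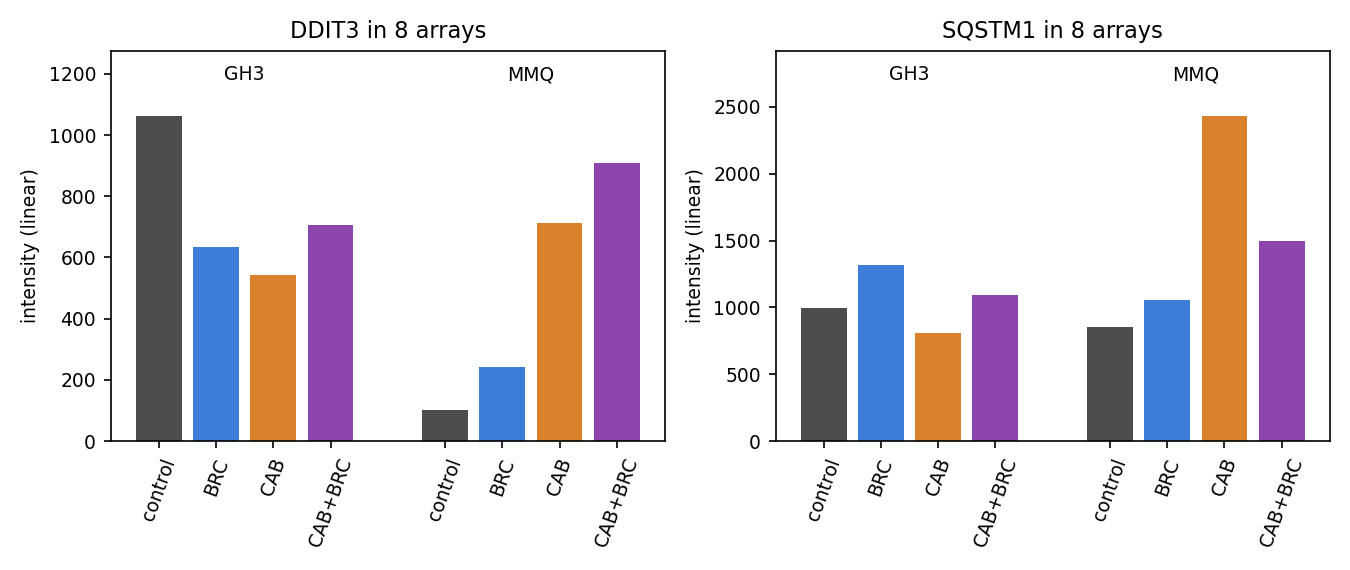
Intensity on a linear axis from 0 of DDIT3 (left) and SQSTM1 (right) in the 8 arrays, 1 bar per array, with the GH3 arrays before the MMQ arrays in each panel. DDIT3 runs from 101 in the MMQ control to 1063 in the GH3 control, and SQSTM1 stands out in the MMQ CAB array at 2433.

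Untreated GH3 and MMQ cells differed in DDIT3 by far more than in SQSTM1. The intensity of DDIT3 in the GH3 control was 10.5 times that in the MMQ control, a log2 difference of 3.39, where log2 differences are of the intensity plus 1. At least 2-fold higher in the GH3 control were 8.76% of all probe sets. With BRC in both lines DDIT3 was at 634 in GH3 and 243 in MMQ cells, a log2 difference of 1.38, where 8.59% of all probe sets were at least 2-fold higher in GH3. With CAB the sign turned, and GH3 minus MMQ was -0.39 with CAB and -0.37 with CAB+BRC, both under 2-fold. SQSTM1 differed between the controls by a log2 value of 0.21 and between the BRC arrays by 0.32. It was lower in GH3 cells by a log2 difference of -1.59 with CAB, a difference in which 7.75% of all probe sets were at least 2-fold lower, and of -0.46 with CAB+BRC. The identification required an MMQ control low against MMQ CAB. For both genes, the line differences in the controls and with CAB alone are therefore descriptions.
Averaged over the treatments, GH3 minus MMQ was 1.00 for DDIT3 and -0.38 for SQSTM1, which is a description, since the MMQ control and CAB arrays that identified the genes enter both the mean and its spread. A limma model of line plus treatment on the BRC and CAB+BRC arrays, with 1 residual degree of freedom, fits none of these. The MMQ CAB+BRC levels of both genes were known beforehand. The line difference was 0.51 for DDIT3 (95% interval -0.50 to 1.51, adjusted p = 0.336 in limma) and -0.07 for SQSTM1 (95% interval -0.62 to 0.48, adjusted p = 0.814 in limma). Neither passed, while 51.0% of the 14147 probe sets tested did. The mean over treatments was 0.21 for DDIT3 without either control array and 1.47 without either CAB array.

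**Figure D2:**
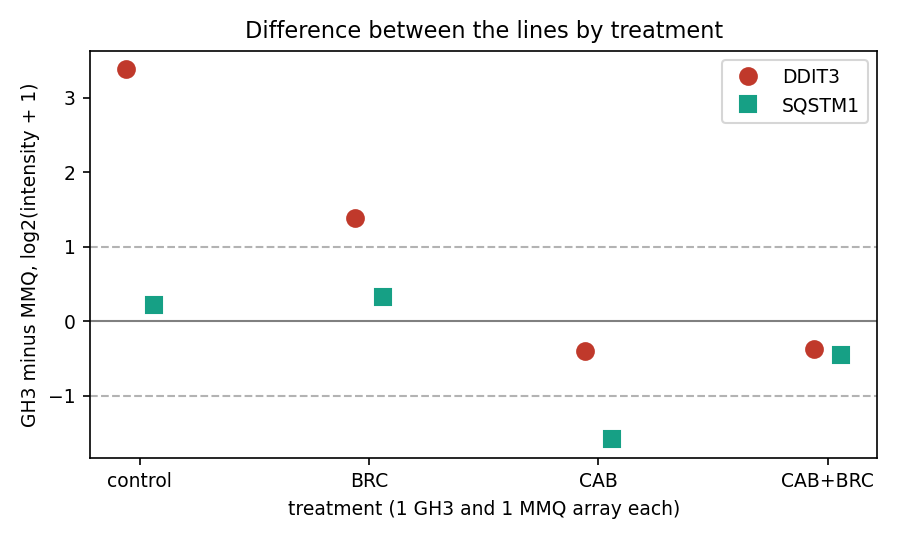
GH3 minus MMQ difference of log2(intensity + 1) for DDIT3 (circles) and SQSTM1 (squares) at each treatment, from 1 array per line, with dashed lines at a 2-fold difference. DDIT3 goes from 3.39 in the controls to 1.38 with BRC and -0.39 with CAB, and SQSTM1 lies within 2-fold except with CAB, at -1.59.

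CAB in MMQ cells can be read from a pair of arrays that did not enter the fold used to identify the genes, CAB+BRC against BRC. The CAB+BRC levels of both genes were known beforehand as a check on their rows, so this pair is not fully independent of the choice. The filter for brighter probe sets also used all 8 arrays. In this pair DDIT3 was at 910 against 243, 3.75 times higher and a log2 difference of 1.90, and SQSTM1 at 1498 against 1053, 1.42 times higher and 0.51. At least 2-fold higher in this pair were 0.869% of all probe sets, and DDIT3 was among them. The pair that identified the genes, CAB against control, had log2 differences of 2.81 for DDIT3 and 1.51 for SQSTM1, which hold by the choice of the genes (1.08% of all probe sets were at least 2-fold higher).
To set the pair without the identifying arrays against a spread, limma was fitted to the 4 GH3 arrays and these 2 MMQ arrays, with 1 residual degree of freedom from GH3 cells. Limma draws the spread of each probe set toward that of all probe sets. The residual standard deviation went from 0.56 to 0.27 for DDIT3 and from 0.015 to 0.18 for SQSTM1. The intervals and p-values thus rest largely on the spread of other probe sets. The log2 effect of CAB with BRC present was 1.90 for DDIT3 (95% interval 1.03 to 2.77, unadjusted p = 0.000995, limma adjusted p = 0.0767) and 0.51 for SQSTM1 (95% interval -0.08 to 1.10, limma adjusted p = 0.776). Neither passed the threshold of 0.05 over the 14147 probe sets, of which 0.749% did. Over all 8 arrays the additive estimate of CAB in MMQ cells was 2.36 for DDIT3 and 1.01 for SQSTM1, which includes the identifying pair.

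In GH3 cells neither gene was higher with CAB alone than in the control. Against the control, the CAB array had a log2 difference of -0.97 for DDIT3, just under 2-fold, and of -0.30 for SQSTM1, and 1.16% of all probe sets were at least 2-fold lower. With BRC present, CAB+BRC against BRC gave 0.15 for DDIT3 and -0.27 for SQSTM1. The sign for DDIT3 thus differed between the pair with the GH3 control and the pair without it. In the additive limma model over all 8 arrays, with CAB and BRC effects within each line, the CAB effect was -0.41 for DDIT3 (95% interval -1.15 to 0.34, limma adjusted p = 0.610). For SQSTM1 it was -0.28 (95% interval -0.84 to 0.28, limma adjusted p = 0.634). Over all probe sets limma called 0 (0%), with 1436 at an unadjusted p under 0.05. The 2 residual degrees of freedom of this model include the departure of CAB+BRC in MMQ cells, which holds the identifying pair, so the calls were also made with the spread of GH3 cells alone.
The CAB effect in GH3 minus that in MMQ with BRC present was -2.31 for DDIT3 (95% interval -3.38 to -1.24, limma adjusted p = 0.245). For SQSTM1 it was -0.79 (95% interval -1.51 to -0.07, limma adjusted p = 0.849). Neither difference between the lines passed over all probe sets, of which 2 did (0.0141%), and 790 had an unadjusted p under 0.05.

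With BRC alone, DDIT3 was lower than the control in GH3 cells and higher in MMQ cells, while SQSTM1 was a little higher in both. DDIT3 had log2 differences of -0.74 in GH3 and 1.26 in MMQ cells, the latter at least 2-fold higher, as were 0.120% of all probe sets. The identification required this MMQ control to be low against CAB, so the MMQ value is a description. SQSTM1 had 0.40 in GH3 and 0.30 in MMQ cells. The pairs that measure BRC in the presence of CAB gave log2 differences for DDIT3 of 0.38 in GH3 and 0.35 in MMQ cells, both higher with BRC. For SQSTM1 these pairs gave 0.43 in GH3 and -0.70 in MMQ cells. SQSTM1 in GH3 cells was thus the case in which BRC gave nearly the same value with and without CAB.
In the additive limma model the BRC effect in GH3 cells was -0.18 for DDIT3 (95% interval -0.93 to 0.56, limma adjusted p = 0.824) and 0.42 for SQSTM1 (95% interval -0.14 to 0.97, limma adjusted p = 0.498). In MMQ cells it was 0.81 for DDIT3 (95% interval 0.06 to 1.55, limma adjusted p = 0.399) and -0.20 for SQSTM1 (95% interval -0.76 to 0.36, limma adjusted p = 0.800). The interval of DDIT3 in MMQ cells reached below 0 with quantile normalization (-0.06 to 1.47) and without the MMQ control or the MMQ BRC array (0.35, 95% interval -0.52 to 1.22). The difference of the BRC effect, GH3 minus MMQ, was -0.99 for DDIT3 (95% interval -2.04 to 0.07, limma adjusted p = 0.343) and 0.62 for SQSTM1 (95% interval -0.17 to 1.41, limma adjusted p = 0.414). Limma called 0 probe sets (0%) in each of these comparisons, with 1691, 1663 and 2194 at an unadjusted p under 0.05 in the order given. The MMQ control and CAB arrays, which identified the genes, enter the BRC effect in MMQ cells, in value and spread. They also enter the difference of the BRC effect between the lines, so nothing is concluded from either comparison.

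BRC and CAB are both ergot derivatives, and the single-drug arrays of a line share the dose of 50 μM, although a time is stated for only 1 of them in each line. In GH3 cells, CAB minus BRC was a log2 difference of -0.22 for DDIT3 (95% interval -1.28 to 0.83, limma adjusted p = 0.902) and -0.70 for SQSTM1 (95% interval -1.49 to 0.09, limma adjusted p = 0.574). The intervals allow differences of more than 2-fold for both genes, so the drugs are not shown to act alike in GH3 cells. In MMQ cells CAB minus BRC was 1.55 for DDIT3 and 1.21 for SQSTM1, at least 2-fold for both, as for 1.07% of all probe sets. The genes were chosen for the CAB array of that pair, so this is a description. Of the drug pairs compared, 1 per line, a test is therefore given only for the GH3 pair, with p-values adjusted over all probe sets.

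**Figure D3:**
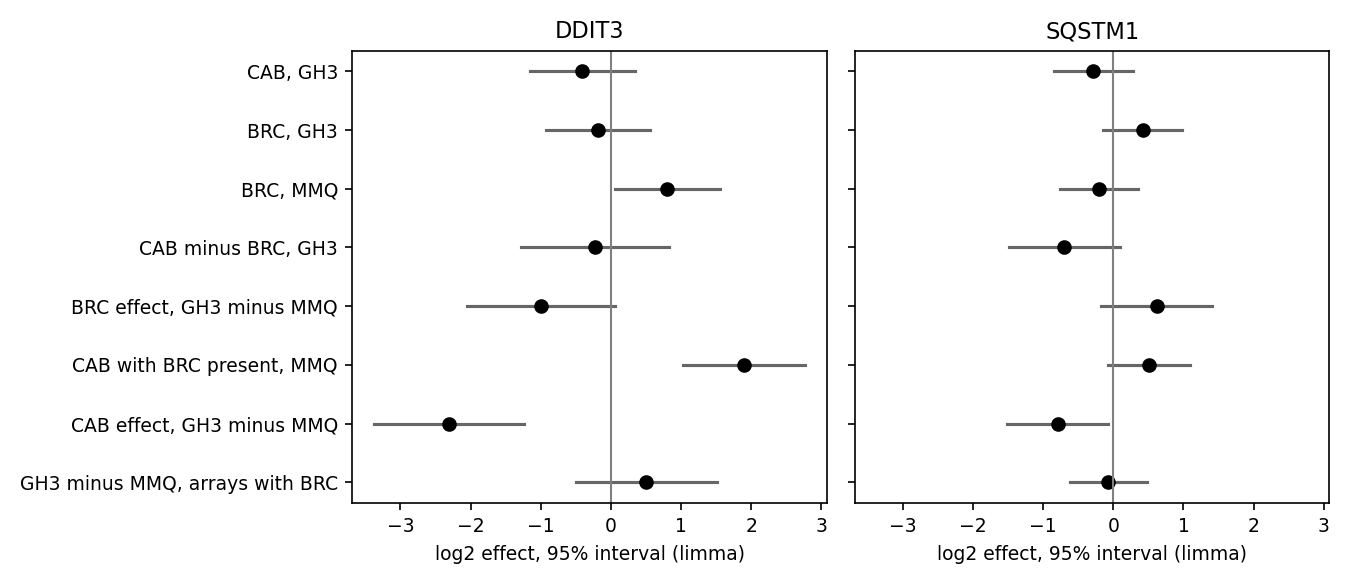
Log2 effects of DDIT3 (left) and SQSTM1 (right) in the 8 tested comparisons, as points with their 95% intervals from limma on the log2(intensity + 1) scale. The intervals of DDIT3 for CAB with BRC present in MMQ cells (1.03 to 2.77) and for the CAB effect in GH3 minus MMQ (-3.38 to -1.24) lie farthest from 0, and none of the 16 values passed after adjustment over all probe sets. In the comparisons of the additive model, the arrays that identified the genes enter part of the spread. For BRC in MMQ cells and the BRC effect in GH3 minus MMQ they also enter the value, so nothing is concluded from these.

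In GH3 cells the level with CAB+BRC lay away from the sum of the single drugs for DDIT3 but not for SQSTM1. In MMQ cells, where the departures hold the pair that identified the genes, both genes lay below the sum. Had the drugs added on the log2 scale, DDIT3 would have had an intensity of 324 with CAB+BRC in GH3 cells and 1713 in MMQ cells, against measured levels of 705 and 910. The departure, CAB+BRC minus that sum, was 1.12 in GH3 and -0.91 in MMQ cells, so the combination was above the sum in GH3 cells and below it in MMQ cells. For SQSTM1 the sum was 1069 in GH3 cells against a measured 1091, a departure of 0.03. In MMQ cells the sum was 2991 against 1498, a departure of -0.997 that came to just under 2-fold. Of the members, the DDIT3 value in GH3 cells was at least 2-fold above the sum, as were 1.89% of the 14147 brighter probe sets there. A departure at least as far from 0, in either direction, was found for 2.47% of these probe sets for DDIT3 in GH3 cells and for 93.9% for SQSTM1. In MMQ cells, where departures had a standard deviation of 0.30 against 0.46 in GH3 cells, the shares were 1.07% for DDIT3 and 0.799% for SQSTM1. The departures in MMQ cells contain the pair that identified the genes with its sign reversed, so genes chosen to be high with CAB tend to have negative ones there, and nothing is read from them.
The departure in GH3 cells was not tested, since the only spread to set it against is the departure in MMQ cells, which holds that pair. The GH3 control array, the highest of all for DDIT3, enters this departure with a plus sign.

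**Figure D4:**
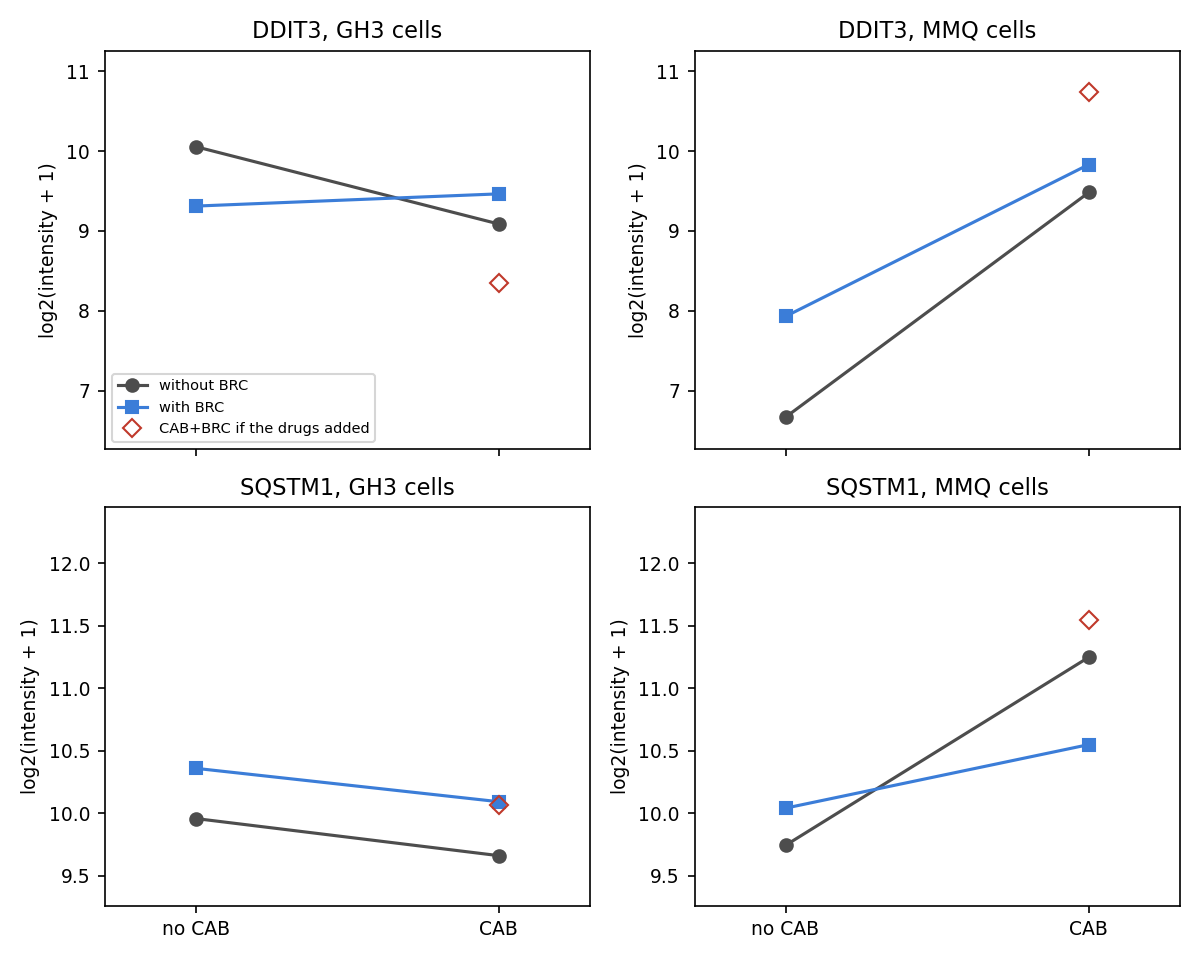
Log2(intensity + 1) of DDIT3 (top) and SQSTM1 (bottom) without and with CAB in GH3 (left) and MMQ cells (right), 1 point per array, with lines joining the arrays without BRC (circles) and with BRC (squares). Open diamonds mark the level of CAB+BRC if the drugs had added, and the measured level lies 1.12 above it for DDIT3 in GH3 cells, -0.91 and -0.997 from it for DDIT3 and SQSTM1 in MMQ cells, and 0.03 from it for SQSTM1 in GH3 cells.

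Among the other 21 probe sets that could be named through the study's gene tables, those whose log2 levels followed DDIT3 most closely over the 8 arrays were AP1S2, a clathrin adaptor subunit (Pearson r = 0.80), RSAD2, an interferon-induced antiviral gene (0.55), and ACSS2, the cytosolic acetyl-CoA synthetase (0.52). Those closest to SQSTM1 were RSAD2 (0.89), MVD, an enzyme of the mevalonate pathway (0.85), and ACSS2 (0.82). These genes were listed, like DDIT3 and SQSTM1, for being higher with CAB in MMQ cells, so they share that pair of arrays by choice, and the 8 arrays fall into 2 lines. The correlation of DDIT3 with SQSTM1 was 0.43 over the 8 arrays, ranked behind other genes of the tables for both. Within a line, over 4 arrays each, it was 0.13 in GH3 and 0.84 in MMQ cells. The MMQ value includes the pair that identified the genes. Genes of the unfolded protein response and of autophagy outside the tables were not analysed here, since their rows could not be named.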

How the data were processed

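DDIT3 and SQSTM1, and the genes they are set beside, were chosen with earlier results of these data known. Per the study's methods, signals came from the Affymetrix Command Console software, and the deposited file holds a linear intensity for each probe set of each array. Summarization, background correction and normalization are not stated in the sources used here. Array medians were 48.4 to 49.9 in GH3 and 45.9 to 47.6 in MMQ cells, and no scaling was added. Signal over background is unknown, and precision is limited by the number of arrays.

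Of 26 entries in the study's tables, 24 matched 1 probe set by fold and 2 matched none. Results of some other matched genes are not reported here. Log2(intensity + 1) was fitted with limma 3.58.1 in R 4.3.3 (lmFit, eBayes, two-sided), over the 14147 brighter probe sets, those above the median of the mean log2 values. P-values were Benjamini-Hochberg adjusted over these, with a threshold of 0.05. Intervals are 95% moderated intervals, in which the spread of each probe set is drawn toward that of all probe sets. A pair of single arrays was described by the study's cutoff of 2-fold. The 8 comparisons tested for both genes used the drugs' additivity, or the constancy of the line difference, as the source of spread. P-values measure only that spread. It can hold technical noise and any real drug interaction or change of the line difference, which 1 array per condition cannot separate. The line difference over all arrays and the CAB+BRC departure in GH3 cells, planned as tests, are given as values, because the arrays that identified the genes enter their spread. These arrays also enter part of the spread of the additive model. Its comparisons were therefore also fitted with the spread of GH3 cells alone, and their p-values in the main fit are limited by this. That refit does not take these arrays out of the value of the BRC effect in MMQ cells or of its difference between the lines. The genes named beside the members were the 3 most correlated of the matched entries. Alternatives were quantile normalization, median centring, no filter, a pseudocount of 16, and leaving out arrays.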

Additional observations from a re-analysis of the deposited data

Results flagged for a closer look

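Treated arrays lay on opposite sides of the control in the lines for DDIT3. All 3 treated GH3 arrays lay below the GH3 control, with a mean log2 difference of -0.77, and all 3 treated MMQ arrays lay above the MMQ control, with a mean of 2.41. The 3 differences of a line share its control array, the highest of all arrays in GH3 and the lowest in MMQ cells, and this difference over all treated arrays was not tested. The MMQ mean includes the pair that identified the gene, and that pair required a control array low against CAB. SQSTM1 was lower with CAB in both GH3 pairs, without and with BRC, with a mean log2 difference of -0.28, and higher in both MMQ pairs, with a mean of 1.01. This MMQ mean also includes the identifying pair, and the difference between the lines without it did not pass (limma adjusted p = 0.849).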

How the results depend on the processing

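No paired analysis was possible because each condition had 1 array. The 16 values tested did not pass in any of their 154 recomputed values that had a p, where the lowest limma adjusted p was 0.0851. Quantile normalization, median centring, no filter and a pseudocount of 16 turned 1 direction, that of the SQSTM1 line difference in the arrays with BRC (0.079 with quantile normalization). With the spread of GH3 cells alone, chosen after seeing the data, the 5 comparisons of the additive model also called 0 probe sets, and limma adjusted p for the members was 0.464 to 0.998. In the comparisons that hold the BRC effect in MMQ cells, the identifying arrays still enter the value.

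Leaving out 1 array turned several directions. The CAB effect of DDIT3 in GH3 cells ranged from -0.97 to 0.15 and its BRC effect from -0.74 to 0.38, positive without the control or the array with that drug alone. CAB minus BRC of DDIT3 in GH3 cells ranged from -1.35 to 0.90 (positive without the CAB array). The BRC effect of SQSTM1 in MMQ cells ranged from -0.70 to 0.30, positive without the MMQ CAB or CAB+BRC array. The BRC effect of GH3 minus MMQ ranged from -1.55 to -0.43 for DDIT3 and from 0.12 to 1.12 for SQSTM1. The line difference in the arrays with BRC ranged from -0.37 to 1.38 for DDIT3 and from -0.46 to 0.32 for SQSTM1, with no test left, and over all treatments that of SQSTM1 ranged from -0.61 to 0.025. The CAB effect of DDIT3 in GH3 minus MMQ ranged from -2.87 to -1.75 without 1 GH3 array, with no test left. The cause was not tested.

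The number of all probe sets called for CAB in MMQ cells with BRC present was 106, and 85, 25, 0 and 1 with quantile normalization, median centring, no filter and a pseudocount of 16. For the CAB effect between lines 2 calls became 0 under the last 3 of these. In GH3 cells 0 calls became 957 for CAB (without the BRC or CAB+BRC array), 354 for BRC (without the CAB or CAB+BRC array) and 1 for CAB minus BRC (without the BRC array), and in MMQ cells 2 for BRC (without the CAB or CAB+BRC array).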
